A study of Mus musculus with 23 samples.

Results

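In the ovary of CAST/EiJ mice, Gad1, Tspan10, Cst9, Tas1r1 and AK157302 were expressed in every library, whereas in C57BL/6J and NZO/HlLtJ Tas1r1 had 6 to 45 counts per library and the other 4 genes had 0 to 8. Atp12a showed the opposite pattern, with expression in C57BL/6J, a lower level in NZO/HlLtJ and 0 to 3 counts per library in CAST/EiJ. These 6 genes, of the 24716 listed, were picked by symbol because an earlier look at the same libraries had shown this difference between strains. The CAST/EiJ difference is therefore described here and not tested, and tests are given only for diet, for NZO/HlLtJ against C57BL/6J and for genes outside the 6.

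The samples were 23 ovary libraries of female wild-type mice. C57BL/6J is the reference laboratory mouse. CAST/EiJ was bred from wild mice of the subspecies castaneus. NZO/HlLtJ is an inbred strain that becomes obese and is prone to diabetes. Mice of each strain ate a control diet with 10% fat or a diet high in fat and sugar with 44% fat from 6 weeks of age, both with added fiber, and ovaries were taken at 15 weeks. C57BL/6J on 10% fat had 3 libraries and the other 5 groups had 4 each, which made 7 C57BL/6J, 8 CAST/EiJ and 8 NZO/HlLtJ libraries. The labels give no stage of the oestrous cycle, and the 44% diet changed fat and sugar together. The RNA came from whole tissue, in which fewer cells of a type and less RNA per cell cannot be told apart.

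Library totals ran from 31.94 to 45.85 M estimated counts, so that 3 counts, taken here as the detection floor of 1 library, corresponded to 0.0644 to 0.0937 counts-per-million (CPM). All 8 granulosa, all 8 theca and luteal and all 8 oocyte markers were detected in each strain. Summed oviduct epithelium markers reached 5193 CPM in CAST/EiJ 10% fat replicate 2, against 36.2 to 5193 CPM over CAST/EiJ (median 47.6), 8.66 to 233 CPM over C57BL/6J and 10.1 to 22.3 CPM over NZO/HlLtJ. The 233 CPM belonged to C57BL/6J 44% fat replicate 1. The sum does not weigh its genes alike. Dnah5 averaged 35.9 ± 25 CPM in CAST/EiJ (SD, n = 8), against 5.01 CPM in C57BL/6J and 0.467 CPM in NZO/HlLtJ. Ovgp1 averaged 603 ± 1689 CPM in CAST/EiJ (SD, n = 8). White adipocyte markers summed to 95.8 to 2077 CPM in CAST/EiJ, 68.8 to 171 CPM in C57BL/6J and 76 to 114 CPM in NZO/HlLtJ. By the edgeR test against both other strains, which 15.4% of all tested genes passed as higher in CAST/EiJ, 7 of 10 adipocyte markers were higher (3 in limma) and 3 of 10 oviduct markers (2 in limma, and 6 in edgeR without C57BL/6J 44% fat replicate 1). Without CAST/EiJ 10% fat replicate 2, 1 oviduct marker was lower in CAST/EiJ in edgeR, in place of 0. None of the 10 oviduct or 10 adipocyte markers was at 0 throughout a strain. The part of this tissue RNA in the levels of the 6 genes was not tested.

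As background, the 6 genes have different known roles. Gad1 encodes glutamate decarboxylase, which makes the transmitter gamma-aminobutyric acid (GABA) from glutamate. Tas1r1 encodes a subunit of the amino acid (umami) taste receptor and pairs with Tas1r3. Tspan10 is a tetraspanin of the TspanC8 family, which escorts the membrane protease Adam10 to the cell surface. Cst9, also called testatin, belongs to the cystatin family of protease inhibitors and is best known from the testis. Atp12a encodes the catalytic subunit of the non-gastric proton-potassium pump, which needs a beta subunit. AK157302 is an intronless gene model with no role known to be its own.

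On the GRCm38 build, Gad1 lies at chr2:70553072-70602014 on the plus strand with 8 transcripts in the GENCODE annotation and overlaps the antisense gene Gad1os. Tspan10 lies at chr11:120442644-120446950, Cst9, with 3 exons, at chr2:148835147-148838738, and Atp12a, which overlaps the antisense gene Gm10873, at chr14:56365068-56388551, all on the plus strand. Tas1r1, with 6 exons, lies at chr4:152027914-152038568 on the minus strand. AK157302 is a single exon at chr13:21495223-21497146 on the plus strand, protein coding in GENCODE and a pseudogene in the RefSeq table. Of the distinct 100-base stretches of their transcripts, Tspan10, Cst9 and Tas1r1 shared 0% with any other annotated gene, and Gad1 shared 0.104%, all with Gad1-ps. Atp12a shared 4.75% with Gm10873 on the opposite strand. Whether the counting used strand is not given in the sources used here, so reads from the stretch that Atp12a shares with Gm10873 cannot be told apart. Gad1 shared no 100-base stretch with Gad1os.

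AK157302 shared 49.2% of its 100-base stretches (898 of 1825) with Isca1, an iron-sulfur cluster assembly gene at chr13:59755409-59769810 on the minus strand. The other stretches of AK157302 occur in no other annotated gene. The coding sequences are shown as a part of the shared sequence, which also reaches beyond them. Each has 387 bases, and 2 of them differ, an identity of 99.5%. The first 120 bases hold both and are shown, and the rest are identical. Capitals mark the differing bases, and positions count from the first base of the start codon, with the Isca1 base first, C31T and T36C.
AK157302: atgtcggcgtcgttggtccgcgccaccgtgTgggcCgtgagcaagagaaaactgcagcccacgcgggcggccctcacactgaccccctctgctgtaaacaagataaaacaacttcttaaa
Isca1: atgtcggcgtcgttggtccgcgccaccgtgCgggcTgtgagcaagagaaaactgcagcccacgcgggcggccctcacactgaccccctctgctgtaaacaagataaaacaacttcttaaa
Reads that miss both differing bases fit either coding sequence of the reference, so the level of AK157302 is uncertain, and Isca1 is given with it below.

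Promoter windows from RefSeq (GRCm38.p6, 250 bases before to 50 after the annotated start) were found for 4 of the 6 genes, Gad1, Tspan10, Cst9 and Tas1r1. The windows with the most and the fewest CG dinucleotides are shown, to let the reader compare the start regions of genes with the same strain pattern. Capitals mark CG dinucleotides. The Gad1 window is chr2:70561879-70562178 (plus strand) and the Tspan10 window chr11:120442381-120442680 (plus strand), both of the C57BL/6J reference. The Gad1 window lies inside the gene span, which begins at 70553072 in GENCODE and at 70561303 in RefSeq. Which start of Gad1 was used in these libraries was not tested.
Gad1: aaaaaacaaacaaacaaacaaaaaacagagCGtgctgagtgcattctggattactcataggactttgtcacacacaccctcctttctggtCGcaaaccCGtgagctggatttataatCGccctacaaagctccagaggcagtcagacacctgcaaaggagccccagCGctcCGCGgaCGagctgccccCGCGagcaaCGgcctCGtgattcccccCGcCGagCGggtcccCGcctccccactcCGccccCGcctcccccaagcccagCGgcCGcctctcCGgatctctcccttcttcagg
Tspan10: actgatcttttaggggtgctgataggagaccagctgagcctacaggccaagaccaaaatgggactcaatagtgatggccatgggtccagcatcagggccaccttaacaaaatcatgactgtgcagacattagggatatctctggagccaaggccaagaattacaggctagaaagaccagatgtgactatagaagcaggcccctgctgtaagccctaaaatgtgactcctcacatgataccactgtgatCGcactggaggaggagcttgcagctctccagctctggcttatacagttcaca
Gad1 held 21 CG dinucleotides, Tas1r1 5, Cst9 3 and Tspan10 1, with a median of 7 over 32544 mouse windows. Both strands were searched for TATAAA (in 13.6% of all windows), CCAAT (37.4%), GGGCGG (35.9%), CAAGGTCA (1.53%), CACGTG (7.17%) and AGATAA (11.2%). Only the Gad1 window held any of these, TATAAA and GGGCGG, both read on the minus strand. Their leftmost bases in the window as shown lie at -141 and -8 from the annotated start.

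Gad1 was present in all CAST/EiJ libraries and at 4 counts or fewer in all others. In CAST/EiJ it measured 12.6, 12.1, 11.8 and 15.4 CPM on 10% fat (replicates 1 to 4) and 14, 10.5, 11.1 and 20.8 CPM on 44% fat. The estimated counts were 0, 1 and 0 in C57BL/6J on 10% fat and 1, 0, 2 and 4 on 44% fat. NZO/HlLtJ had 3, 1, 1 and 3 counts on 10% fat and 2, 0, 1 and 3 on 44% fat. The lowest CAST/EiJ library stood 104-fold above the highest of the other libraries, and 14 of those 15 were at or under 3 counts. Means were 13.5 ± 3.32 CPM in CAST/EiJ (SD, n = 8) and 0.0366 ± 0.0326 CPM in the other strains (SD, n = 15). From 4188 counts on the high side and 22 on the low side, the ratio of pooled counts, scaled for library size, was 366, with a 95% interval of 241 to 584 that covers counting error only.

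Tas1r1 was the highest of the 6 in CPM, not corrected for length, and the only one above the detection floor in every library of all 3 strains. CAST/EiJ libraries measured 79, 140, 95.5 and 68.8 CPM on 10% fat and 65, 123, 88.1 and 69.3 CPM on 44% fat. The 140 CPM came from replicate 2, the library with the most oviduct and adipocyte marker RNA, and without it the mean on 10% fat went from 95.8 ± 31.4 (SD, n = 4) to 81.1 ± 13.5 CPM (SD, n = 3). In C57BL/6J the counts were 15, 24 and 17 on 10% fat and 45, 21, 23 and 20 on 44% fat. NZO/HlLtJ had 28, 35, 29 and 25 counts on 10% fat and 6, 11, 17 and 28 on 44% fat. Low-side libraries thus had 6 to 45 counts, which is a low level and not silence, and no library overlapped with CAST/EiJ. The mean was 91.1 ± 27.4 CPM in CAST/EiJ (SD, n = 8), 0.598 ± 0.183 CPM in C57BL/6J (SD, n = 7) and 0.542 ± 0.203 CPM in NZO/HlLtJ (SD, n = 8). The pooled ratio of CAST/EiJ to the other strains was 154 (95% counting interval 139 to 172).

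Tspan10 varied more between CAST/EiJ libraries than Gad1 did. It measured 16.4, 12.2, 20.2 and 20 CPM on 10% fat and 15.7, 18.5, 7.26 and 10.5 CPM on 44% fat. The counts were 3, 2 and 0 in C57BL/6J on 10% fat and 2, 0, 3 and 0 on 44% fat. NZO/HlLtJ had 1, 6, 0 and 8 counts on 10% fat and 1, 1, 5 and 2 on 44% fat. All 7 C57BL/6J libraries were at or under 3 counts, as were 5 of 8 NZO/HlLtJ libraries, and the highest of these lay 34.7-fold below the lowest CAST/EiJ library. The means were 15.1 ± 4.69 CPM in CAST/EiJ (SD, n = 8) and 0.0577 ± 0.0622 CPM in the others (SD, n = 15), with a pooled ratio of 263 (95% counting interval 188 to 380).

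Cst9 had the widest spread among the CAST-high genes. CAST/EiJ libraries measured 40.1, 11.8, 22.2 and 39.4 CPM on 10% fat and 14.2, 11.3, 35.5 and 16.8 CPM on 44% fat, so each diet held both low and high libraries. The coefficient of variation was 48.5% on 10% fat and 56.1% on 44% fat. Among genes averaging 5 CPM or more in these groups, the 90th percentile of that coefficient was 37.9% and 24.8%. On the low side C57BL/6J had 4, 5 and 1 counts on 10% fat and 1, 3, 5 and 3 on 44% fat. NZO/HlLtJ had 0, 2, 0 and 0 counts on 10% fat and 0, 0, 0 and 7 on 44% fat. Thus no C57BL/6J library was at 0 and 6 of 8 NZO/HlLtJ libraries were. The means were 23.9 ± 12.5 CPM in CAST/EiJ (SD, n = 8) and 0.0516 ± 0.0564 CPM in the others (SD, n = 15), and the pooled ratio was 460 (95% counting interval 324 to 678).

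AK157302 had the narrowest spread. CAST/EiJ libraries measured 13.6, 15.5, 14.2 and 14.8 CPM on 10% fat and 12.6, 14.3, 11.5 and 13.4 CPM on 44% fat, with coefficients of variation of 5.73% and 9.23%. Medians over genes with at least 5 CPM were 12.1% and 9.4%. After rounding, C57BL/6J had 2, 0 and 6 counts on 10% fat and 0, 0, 3 and 0 on 44% fat. In NZO/HlLtJ 1 count was found in replicate 1 on 10% fat and 0 in the other 7 libraries. All 23 deposited values of this gene were fractional. The mean was 13.7 ± 1.27 CPM in CAST/EiJ (SD, n = 8), and pooled ratios were 338 over C57BL/6J (95% counting interval 189 to 678) and 4377 over NZO/HlLtJ (785 to 172940).

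Isca1 was lower in the strain in which its near copy was high. It measured 46.5 ± 2.81 CPM in CAST/EiJ (43.3 to 52.6, SD, n = 8), 92.4 ± 5.6 CPM in C57BL/6J (83 to 101, SD, n = 7) and 90.3 ± 4.51 CPM in NZO/HlLtJ (82 to 96, SD, n = 8). The log2 fold change was -0.99 against C57BL/6J and -0.96 against NZO/HlLtJ, with an edgeR adjusted p of 1.36e-12 for each. In these comparisons 46.8% and 48.1% of all tested genes passed, in either direction. The sum of AK157302 and Isca1 was 60.2 ± 3.61 CPM in CAST/EiJ (55.7 to 68.1, SD, n = 8) and 91.3 ± 4.97 CPM in the other strains (82 to 101, SD, n = 15), so the sums did not overlap either. AK157302 made up 20.6 to 24.7% of this sum in CAST/EiJ libraries and 0 to 0.206% elsewhere. How reads shared by the 2 genes were divided is not given in the sources used here, and its part in both levels was not tested.

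**Figure D1:**
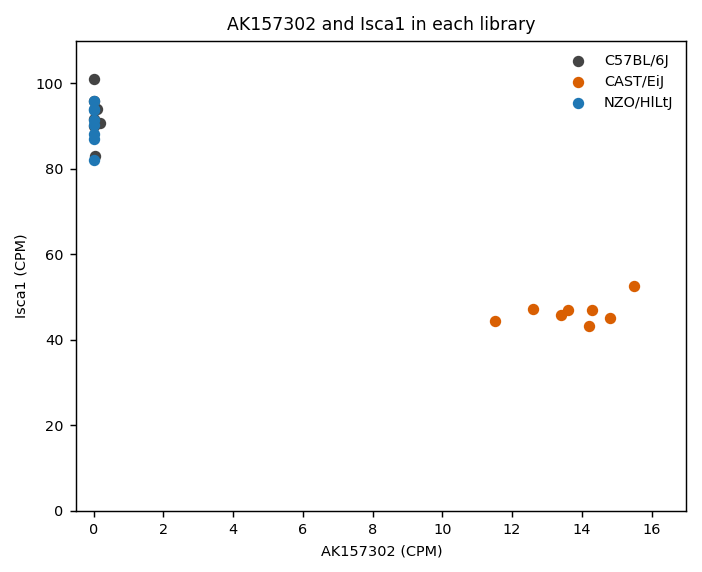
Level of Isca1 (vertical axis, CPM) against that of AK157302 (horizontal axis, CPM), 1 point per library, coloured by strain. The 8 CAST/EiJ libraries sit at 11.5 to 15.5 CPM of AK157302 and 43.3 to 52.6 CPM of Isca1, and the other 15 lie near 0 CPM of AK157302 and between 82 and 101 CPM of Isca1.

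Atp12a was the only one of the 6 that was lower in CAST/EiJ. It had 0 counts in all 4 CAST/EiJ libraries on 10% fat and 1, 3, 0 and 2 counts on 44% fat, so that all 8 were at or under 3 counts. C57BL/6J measured 17, 2.65 and 9.93 CPM on 10% fat and 0.494, 18.4, 8.8 and 18.8 CPM on 44% fat. NZO/HlLtJ measured 0.735, 0.893, 1.22 and 1.62 CPM on 10% fat and 0.909, 0.721, 0.659 and 0.687 CPM on 44% fat. The library at 0.494 CPM, C57BL/6J 44% fat replicate 1, lay below every NZO/HlLtJ library, and it is the C57BL/6J library with the most oviduct marker RNA. The part of that RNA in its low value was not tested. The means were 10.9 ± 7.5 CPM in C57BL/6J (SD, n = 7), 0.93 ± 0.333 CPM in NZO/HlLtJ (SD, n = 8) and 0.0207 ± 0.0338 CPM in CAST/EiJ (SD, n = 8). Against the 6 counts of CAST/EiJ, the pooled ratio was 539 for C57BL/6J (95% counting interval 247 to 1470) and 47.8 for NZO/HlLtJ (21.7 to 131).

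**Figure D2:**
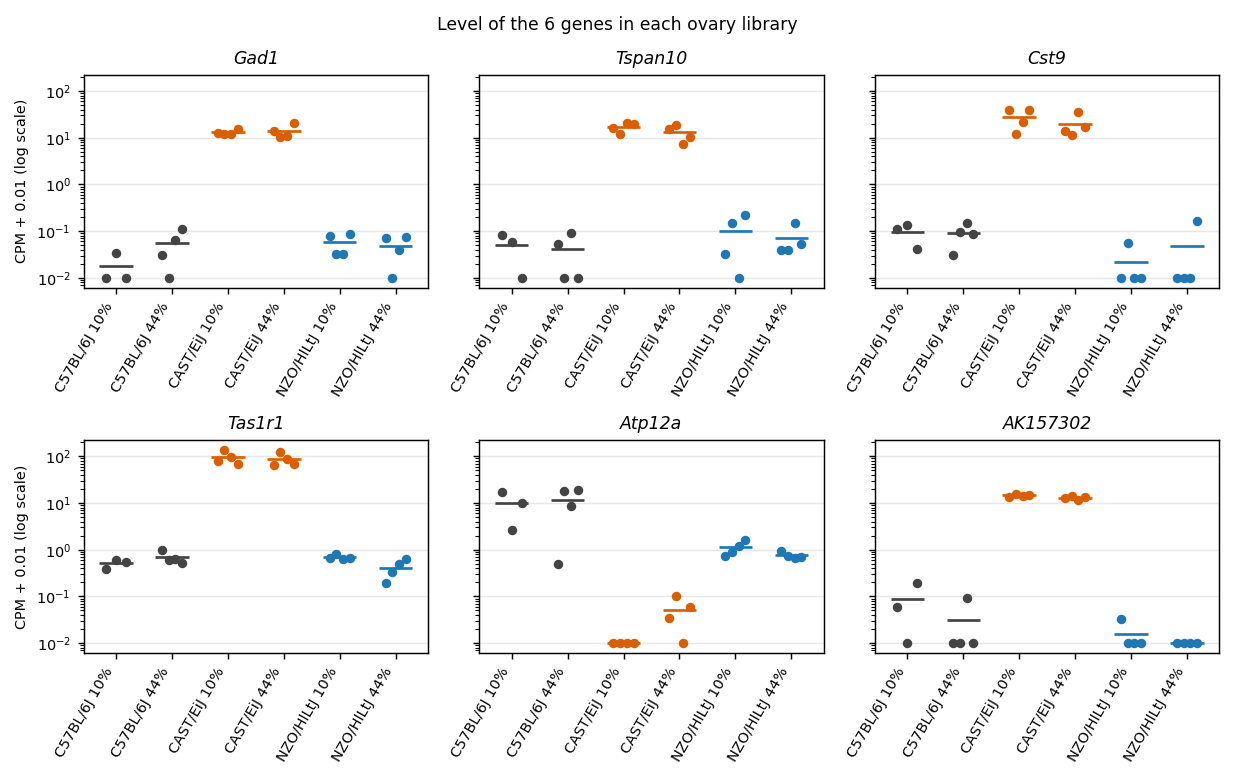
Level of each of the 6 genes in each library as CPM + 0.01 on a log axis, by strain and percent of fat in the diet, with points for libraries and a line at the mean of each group. The CAST/EiJ points lie above all others for 5 genes, with gaps of 34.7-fold to 104-fold between the nearest libraries, and below all others for Atp12a, with a gap of 5.4-fold.

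**Figure D3:**
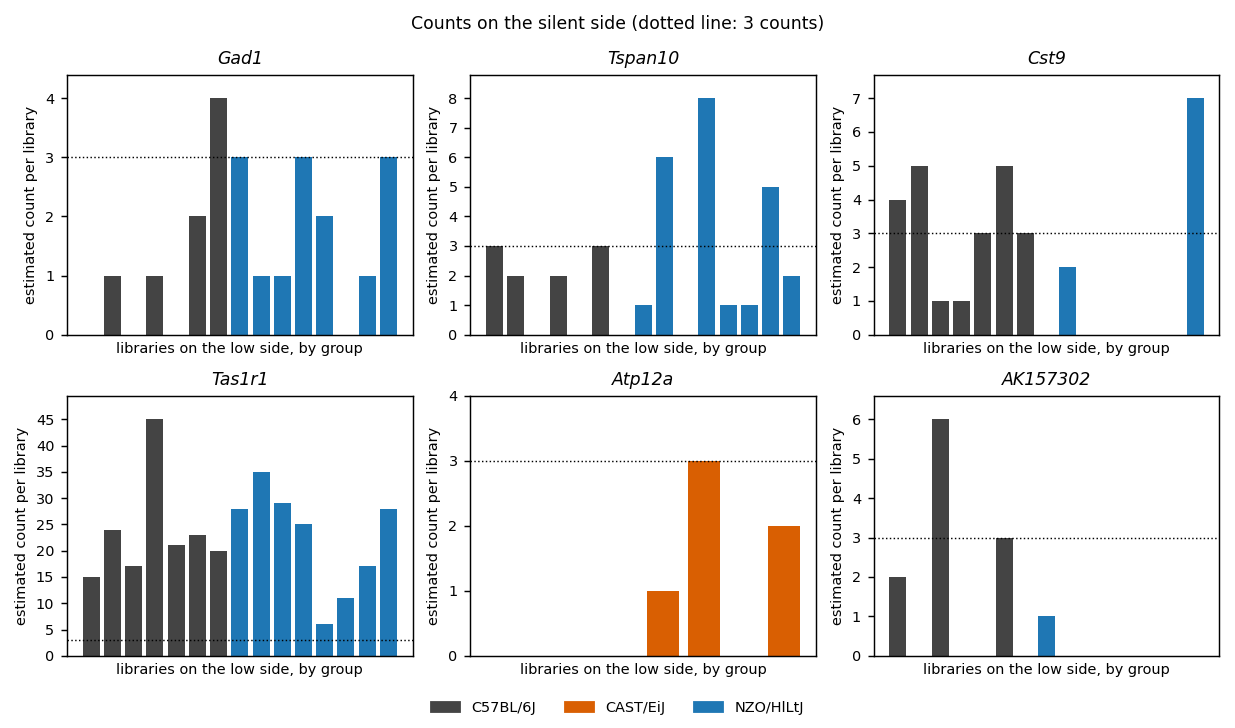
Estimated counts per library on the low side, as bars from 0 coloured by strain, with the detection floor of 3 counts dotted. Tas1r1 had 6 to 45 counts in each of 15 libraries, whereas Gad1 had at most 4, AK157302 at most 6, Cst9 at most 7, Tspan10 at most 8 and Atp12a, shown for the 8 CAST/EiJ libraries, at most 3.

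Levels of different genes were compared per kilobase of merged exons. These join all annotated transcripts of a gene, 8 for Gad1 (7639 bases) and 1 each for Cst9, Tas1r1 and AK157302. A longer union gives a lower value, so the order of genes depends on the annotation. In CAST/EiJ the mean was 34.8 ± 18.1 CPM per kb for Cst9, 31.8 ± 9.56 for Tas1r1, 8.37 ± 2.6 for Tspan10, 7.13 ± 0.659 for AK157302 and 1.77 ± 0.434 for Gad1 (SD, n = 8 each). Cst9 and Tas1r1, whose library ranges were 16.5 to 58.4 and 22.7 to 48.9 CPM per kb, did not differ beyond their spread, nor did Tspan10 and AK157302. Atp12a in C57BL/6J had 2.71 ± 1.87 CPM per kb (SD, n = 7).

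Genes whose libraries part CAST/EiJ from the rest are common in these data. Among the 20189 genes tested, 952 (4.72%) had every CAST/EiJ library above every other library and 921 (4.56%) had every one below. A gap of at least 10-fold was rarer, with 41 genes (0.203%) above and 45 (0.223%) below. Every listed gene was above 0 in at least 12 libraries, so genes above 0 in CAST/EiJ alone are missing from the higher side. The counts and ranks of the higher side leave such genes out and do not compare with those of the lower side. The ranks describe the difference for which the 6 genes were picked. When genes were ordered by the size of this gap, Gad1 was number 6 on the higher side, Cst9 number 10, Tas1r1 number 11, AK157302 number 13 and Tspan10 number 15. Atp12a was number 76 on the lower side, with its highest CAST/EiJ library 5.4-fold below the lowest C57BL/6J library and 7.21-fold below the lowest NZO/HlLtJ library. The library identifiers fall into 3 series (76, 82 and 90), which the labels do not call batches, and each held CAST/EiJ and other libraries. The 6 genes did not overlap over all libraries, so they could not overlap within a series, and the series give no separate check.

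**Figure D4:**
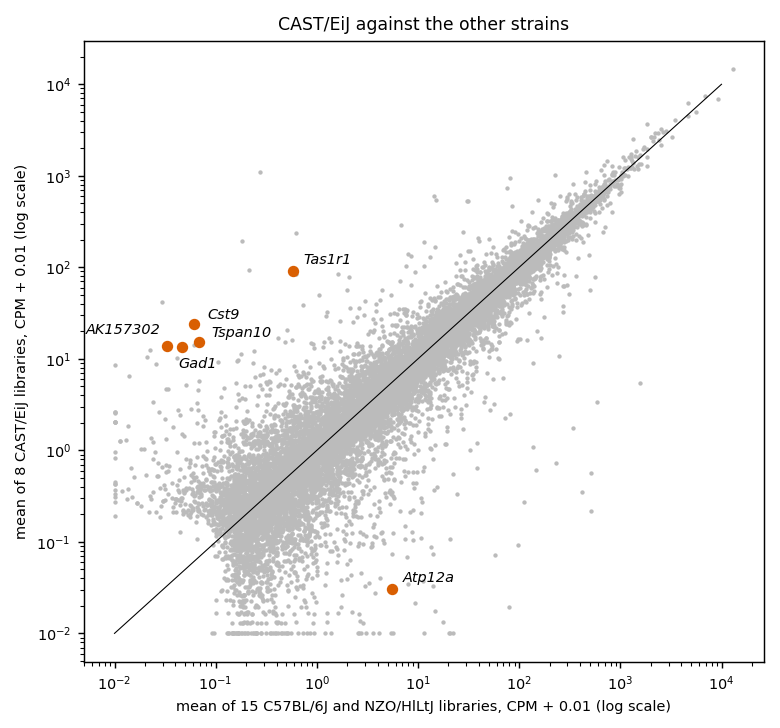
Mean level in the 8 CAST/EiJ libraries against that in the 15 libraries of the other strains, both as CPM + 0.01 on log axes, with each tested gene in grey, the 6 genes in orange and the line of equal levels in black. Gad1, Tspan10, Cst9 and AK157302 stand together at 13.5 to 23.9 CPM in CAST/EiJ, Tas1r1 stands apart at 91.1 CPM with a measurable level in the other strains, and Atp12a lies below the line.

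The diets were compared next, which the choice of the 6 genes had not used. Of the 5 genes expressed in CAST/EiJ, 0 passed the edgeR test of 44% against 10% fat, where 0.624% of all tested genes did. An unadjusted p under 0.05 in that test was found for 0 of the 5 and for 2721 of all 20189 tested genes. The log2 fold changes were 0.12 ± 0.32 (SE) for Gad1, -0.15 ± 0.23 for Tas1r1, -0.16 ± 0.38 for AK157302, -0.40 ± 0.43 for Tspan10 and -0.55 ± 0.44 for Cst9, with edgeR adjusted p between 0.652 and 0.914. An SE here is the size of the log2 fold change over the square root of the F value of the test. The test shares its estimate of spread over all 6 groups, so the SE does not measure the spread within CAST/EiJ. There the coefficient of variation on 10% and 44% fat was 5.73% and 9.23% for AK157302 and 48.5% and 56.1% for Cst9. Values of both diets overlapped for each of the 5.

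In the other strains only Tas1r1 and Atp12a had enough counts for the diet test. In C57BL/6J, where 0% of genes passed in edgeR (1783 at an unadjusted p under 0.05, 70 in DESeq2 and 0 in limma), the log2 fold change was 0.46 ± 0.38 (SE) for Tas1r1 and 0.24 ± 0.74 for Atp12a. In NZO/HlLtJ, where 0% passed as well (710 unadjusted, 4 in DESeq2 and 0 in limma), it was -0.72 ± 0.36 for Tas1r1 and -0.58 ± 0.74 for Atp12a. The difference between these diet effects of Tas1r1, NZO/HlLtJ minus C57BL/6J, was -1.18 ± 0.53 with an unadjusted p of 0.0375 and an edgeR adjusted p of 1. Over all genes 0% passed in that comparison (791 unadjusted, 5 in DESeq2 and 0 in limma). The same term for Atp12a was -0.82 ± 1.05. Against CAST/EiJ, the diet effect of Tas1r1 differed by -0.61 ± 0.45 (CAST/EiJ minus C57BL/6J, where 0.614% of genes passed) and -0.57 ± 0.43 (NZO/HlLtJ minus CAST/EiJ, where 0.0149% passed), and neither passed.

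NZO/HlLtJ and C57BL/6J were also compared for these 2 genes, averaged over diets, a comparison in which 23.9% of all tested genes passed. Atp12a was 11.7-fold lower in NZO/HlLtJ, with a log2 fold change of -3.55 ± 0.55 (SE) and an edgeR adjusted p of 0.000157, and 6 of 7 C57BL/6J libraries lay above all 8 NZO/HlLtJ libraries. Without C57BL/6J 44% fat replicate 1 the log2 fold change was -3.75 ± 0.36 (SE) with an edgeR adjusted p of 1.15e-06. Tas1r1 did not pass, at -0.13 ± 0.26 (SE, edgeR adjusted p of 0.77), and its libraries overlapped between these strains.

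The other genes of each pathway were then read from fixed lists against CAST/EiJ, with a gene called higher or lower when it passed the edgeR test against both C57BL/6J and NZO/HlLtJ. Over all tested genes 15.4% were higher and 15.6% lower by this rule, the median log2 fold change was 0.014 against C57BL/6J and 0.016 against NZO/HlLtJ, and both comparisons share the CAST/EiJ libraries. For GABA synthesis, breakdown and transport, 2 of 8 tested genes were higher and 0 lower (0 unadjusted, 0 in DESeq2 and 0 in limma), with list medians of 0.44 and 0.23. Abat, the enzyme that breaks down GABA, had 184 ± 31.8 CPM in CAST/EiJ (SD, n = 8), 103 ± 16.3 CPM in C57BL/6J (SD, n = 7) and 112 ± 26.2 CPM in NZO/HlLtJ (SD, n = 8). Its log2 fold changes were 0.83 and 0.71, with edgeR adjusted p of 0.000118 and 0.000362. Slc6a12, a carrier of betaine and GABA, was low in all strains, at 0.631 CPM in CAST/EiJ and 0.114 and 0.19 CPM in C57BL/6J and NZO/HlLtJ. Gad2, the other glutamate decarboxylase, had too few counts to be tested.

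Of 14 tested GABA receptor subunits, 7 were lower in CAST/EiJ and 0 higher (0 unadjusted, 0 in DESeq2 and 0 in limma), with list medians of -0.80 and -0.61. Gabra3, an alpha subunit of the GABA-A receptor, fell from 19.9 ± 3.84 CPM in C57BL/6J (SD, n = 7) and 16 ± 2.2 CPM in NZO/HlLtJ (SD, n = 8) to 2.93 ± 0.571 CPM in CAST/EiJ (SD, n = 8), with log2 fold changes of -2.78 and -2.45 and edgeR adjusted p of 4.69e-14 and 2.18e-13. The theta subunit Gabrq, with 0.129 CPM in CAST/EiJ against 0.43 and 0.847 CPM in C57BL/6J and NZO/HlLtJ, and the GABA-B subunit Gabbr2, with 0.108 CPM against 0.531 and 0.291 CPM, were also called lower. Of the genes called lower, Gabre, Gabra3 and Gabrq lie near each other on the X chromosome, between 72255999 and 72842602.

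None of the tested partners of Tas1r1 passed as higher in CAST/EiJ than in both other strains. Of 6 tested genes of taste reception and its signalling, 2 were lower and 0 higher (0 unadjusted, 0 in DESeq2 and 0 in limma), with list medians of -0.98 and -0.49. Tas1r3, the partner subunit, had 0.936 ± 0.466 CPM in CAST/EiJ (SD, n = 8), 1.56 ± 0.31 CPM in C57BL/6J (SD, n = 7) and 1.89 ± 0.59 CPM in NZO/HlLtJ (SD, n = 8), and passed against NZO/HlLtJ (edgeR adjusted p of 0.00897) but not against C57BL/6J (0.0562). Gng13, a G-protein gamma subunit, had 0.119 CPM in CAST/EiJ against 4.09 and 1.43 CPM, with log2 fold changes of -5.05 and -3.52. Plcb2, the phospholipase downstream of taste receptors, had 5.36 CPM against 15.3 and 11.1 CPM, with log2 fold changes of -1.56 and -1.09. Trpm5, Itpr3 and Gnb3 each passed against a single strain. In CAST/EiJ, Trpm5 was higher than in C57BL/6J (log2 fold change of 0.88, edgeR adjusted p of 0.00145). Itpr3 was higher than in NZO/HlLtJ (0.36, edgeR adjusted p of 0.042), and Gnb3 lower than in C57BL/6J (-1.22, edgeR adjusted p of 0.0229).

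Of the 6 tested genes of the TspanC8 list, the other TspanC8 tetraspanins and Adam10, 0 were higher and 0 lower than in both strains, in edgeR at adjusted and unadjusted p, in DESeq2 and in limma alike. The list medians were -0.09 and 0.02. Adam10 measured 203 ± 21.2 CPM in CAST/EiJ (SD, n = 8), 203 ± 24.8 CPM in C57BL/6J (SD, n = 7) and 186 ± 14.7 CPM in NZO/HlLtJ (SD, n = 8).

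Cystatins and stefins moved in both directions, with 2 of 8 tested genes higher and 3 lower and list medians of 0.25 and 0.13. Csta1, a stefin, was higher at 0.43 CPM in CAST/EiJ against 0.0878 and 0.0361 CPM in C57BL/6J and NZO/HlLtJ. Cst8, a cystatin of the reproductive tract, was lower at 2.39 ± 0.843 CPM (SD, n = 8) against 26.6 ± 17.9 CPM (SD, n = 7) and 7.09 ± 3.03 CPM (SD, n = 8), with edgeR adjusted p of 2.93e-07 and 0.00102. Cst13 and Cst7 were lower at levels of 0.0265 and 0.0455 CPM in CAST/EiJ, and the Cst13 call against NZO/HlLtJ held in 20 of 29 alternative fits. Cst8, Cst12, Cst13 and Cst9 lie near each other on chromosome 2, and of these Cst9 and Cst12 were high and Cst8 and Cst13 low in CAST/EiJ.

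Among 16 tested potassium-pump ATPases and their subunits, 2 were higher and 1 lower than in both strains, with list medians of 0.28 and -0.09. Atp1b3, a beta subunit of the sodium pump, was higher at 217 ± 9.04 CPM in CAST/EiJ (SD, n = 8) than in C57BL/6J, at 155 ± 8.6 CPM (SD, n = 7), and NZO/HlLtJ, at 179 ± 10.3 CPM (SD, n = 8). Fxyd4, a regulator of that pump, was called higher, at 1.77 CPM against 0.388 and 0.319 CPM, but this call rested on CAST/EiJ 10% fat replicate 2: without it the log2 fold change against C57BL/6J was -0.03. Atp1a4, a sperm sodium pump subunit, was lower at 0.0131 CPM against 0.102 and 1.29 CPM. Atp4a, the gastric counterpart of Atp12a, had 1.85 CPM in CAST/EiJ, 1.39 CPM in C57BL/6J and 3.2 CPM in NZO/HlLtJ and was not called.

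Around the 6 genes, 123 tested genes had their starts within 500 kb, of which 22 (summed over the 6 places) were higher and 23 lower in CAST/EiJ than in both strains. Over all tested genes 15.4% were higher and 15.6% lower by the same rule. Near Gad1 1 of 7 tested genes was higher and 0 lower (0 unadjusted, 0 in DESeq2 and 0 in limma). Near Tspan10 12 of 50 were higher and 8 lower, near Cst9 2 of 11 higher and 2 lower, and near Tas1r1 6 of 18 higher and 1 lower. Next to Gad1, Erich2 and Gm26558 were not called. Next to Tspan10, Nploc4 was higher at 136 against 123 CPM, with log2 fold changes of 0.13 and 0.15, and Pde6g was not called. The Nploc4 call against C57BL/6J held in 16 of 30 alternative fits and was lost, for example, with the identifier series as a term (edgeR adjusted p of 0.0842). Next to Cst9, Cst13 was lower, as above, and 9230104L09Rik was not called. Next to Tas1r1, the zinc finger gene Zbtb48 was higher at 24.9 ± 4.22 CPM (SD, n = 8) against 14.2 ± 1.46 CPM in the other strains (SD, n = 15), with a log2 fold change of 0.80 in both comparisons, while Nol9 was not called. None of these neighbours approached the difference of the gene it lies beside.

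Near Atp12a 5 of 15 tested genes were lower and 1 higher, against 15.6% lower and 15.4% higher over all tested genes. Rnf17, a gene of the male germ line, measured 1.31 ± 0.374 CPM in CAST/EiJ (SD, n = 8) and 3.71 ± 0.821 CPM in the other strains (SD, n = 15), with log2 fold changes of -1.57 and -1.42. Gzmb, a protease of cytotoxic lymphocytes, had 0.144 CPM against 0.423 CPM. Both genes flanking Atp12a were thus lower in CAST/EiJ, by less than Atp12a itself.

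Near AK157302 7 of 22 tested genes were lower in CAST/EiJ and 0 higher (0 unadjusted, 0 in DESeq2 and 1 in limma). Over all tested genes 15.6% were lower and 15.4% higher. Gm11273, whose start lies 5.8 kb away, showed the reverse pattern of AK157302, with 0.0633 ± 0.0622 CPM in CAST/EiJ (SD, n = 8) and 14.1 ± 4.56 CPM in the other strains (SD, n = 15). Its log2 fold changes were -8.04 and -7.31, with an edgeR adjusted p of 1.6e-13 against C57BL/6J. Of the 100-base stretches of Gm11273, 21.3% also occur in Cox5b, a subunit of the respiratory chain. Zkscan4, on the other side, was not called.

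**Figure D5:**
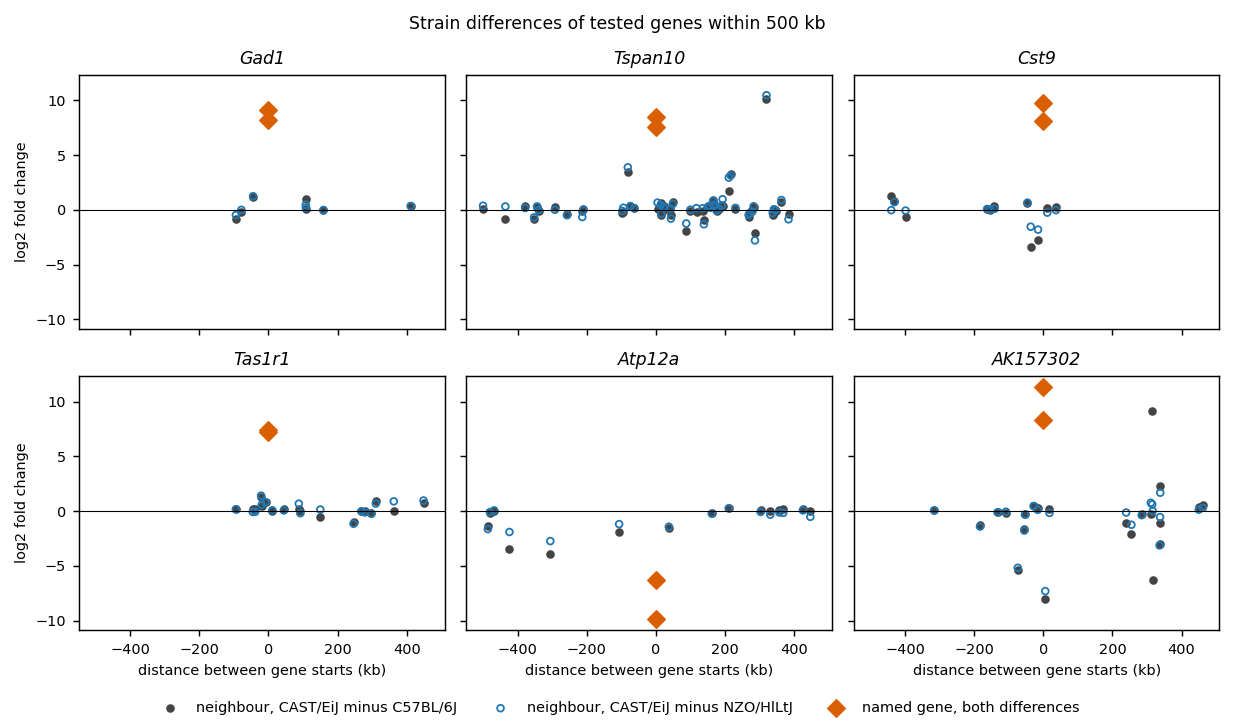
Log2 fold change of CAST/EiJ against C57BL/6J (filled) and NZO/HlLtJ (open) for tested genes by the distance of their start from that of each of the 6 genes (kb), with the gene itself as diamonds. The diamonds show the difference the genes were picked for, and their height depends on the small prior count where a strain is near 0. Near AK157302, Gm11273 lies at -8.04 and -7.31.

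The genes most like each of the 6 across the 23 libraries are given as a description. Likeness was the Pearson correlation of log2 CPM with a prior count of 2. Only tested genes with a mean of at least 1 CPM on the higher side were ranked. Genes with a clone, predicted-gene or pseudogene name were left out, so some unnamed genes may be more alike. The 23 points share the step between strains, which these correlations mainly follow. Gad1 was most like Gsdma3, a gasdermin of skin (r of 0.992), Rpl9 (0.990) and Rpl19 (0.989), and Tspan10 most like Rpl9 (0.983), Gsdma3 (0.981) and Rpl27 (0.979). Cst9 was most like Rpl19 (0.986), Rpl27 and Rpl9 (0.983 each), and Tas1r1 most like Rpl27 (0.992), Rps12 and Rpl9 (0.989 each). AK157302 was most like Rpl17 (0.990), Rpl9 and Rpl27 (0.988 each), and Atp12a most like Slfn8 (0.944), Srp54b (0.935) and Capza1 (0.924).

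Most of these are genes with near copies. The ribosomal protein genes Rpl9, Rpl17, Rpl19, Rpl27 and Rps12 shared 14.5%, 42.4%, 43.3%, 20.8% and 16.8% of their 100-base stretches with other annotated genes. Rpl19, for example, measured 536 ± 33.7 CPM in CAST/EiJ (SD, n = 8) and 31 ± 5.58 CPM in the other strains (SD, n = 15). Gsdma3 shared 0% and measured 41.5 ± 10.2 CPM in CAST/EiJ (SD, n = 8) and 0.0192 ± 0.0308 CPM elsewhere (SD, n = 15). Srp54b shared 89.5% and Capza1 51.7%, and Slfn8 3.38%. The part of shared sequence in these levels was not tested.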

How the data were processed

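Ovary RNA was selected for polyA and sequenced as read pairs, per the labels' protocols. The authors deposited expected counts per gene, estimated by them from the reads, with 27.4% of values not whole, and a table of variance-stabilised log2 values, which served as an alternative. The submitters' processing notes name the GRCm38 build and DESeq2. The aligner, the counting tool and any use of strain-specific sequence are not given in the sources used here. Every listed gene was above 0 in at least 12 libraries, so a gene expressed in the 8 CAST/EiJ libraries alone would not be listed.

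Counts were rounded and fitted with edgeR 4.0.16 (R 4.3.3, TMM scaling, filterByExpr with a minimum count of 10, robust quasi-likelihood test) as 6 group means over 23 libraries. Benjamini-Hochberg adjustment ran over 20189 genes, with a threshold of 0.05. CPM used the TMM-scaled totals. The fit was tested on simulated data. Ratios of pooled counts have exact 95% counting intervals. Replicates were numbered in deposit order. The labels do not say that libraries came from separate animals, and p-values then cover only the spread among these libraries, which may be technical. That spread was above counting noise in all 33 pairs of replicates (chi-square per degree of freedom of 12.4 to 219.7). Of each list, at most 4 genes called against both strains were named, with the nearest tested gene on each side. The 3 most correlated genes of those ranked were named too, and the few others were chosen after their values were seen. Of the genes this rule names, 1 is not reported here. The 6 genes and the lists were chosen with earlier results of these data known. Alternatives were DESeq2 1.42.0, limma 3.58.1 on the variance-stabilised values, relative log expression scaling, no count filter, the identifier series as a term, only the strains compared, no oviduct-rich libraries, and each library left out.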

Additional observations from a re-analysis of the deposited data

Results flagged for a closer look

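In 28 sets of 4 libraries of 1 group and 1 gene, the highest or lowest library was compared with the rest by the gap to its nearest neighbour over the whole range. It passed the 95% limit for 4 samples, 0.829, in 6 sets. Chance flags about 1 in 20 sets of continuous values, a rate that does not apply to the 4 sets in which the other 3 libraries were at 0, since any count then passes. All 6 were on the low side, and 5 of them rest on 1 to 7 counts. Tspan10 stood at 0.143 CPM (5 counts) in NZO/HlLtJ 44% fat replicate 3, where the others had 0.0289 to 0.0443 CPM. Cst9 stood at 0.0458 CPM (2 counts) in NZO/HlLtJ 10% fat replicate 2 and at 0.155 CPM (7 counts) in NZO/HlLtJ 44% fat replicate 4, with 0 in the others of each group. AK157302 stood at 0.083 CPM (3 counts) in C57BL/6J 44% fat replicate 3 and at 0.023 CPM (1 count) in NZO/HlLtJ 10% fat replicate 1, again with 0 in the others. Tas1r1 stood at 0.801 CPM (35 counts) in NZO/HlLtJ 10% fat replicate 2, with 0.63 to 0.655 CPM in the others.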

How the results depend on the processing

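No paired analysis was possible because the labels give no replicate numbers; the identifier series, which does not match libraries one to one, was fitted as a term and its values are below. All 13 tests of the 6 genes for diet or strain by diet stayed without a call in each of 30 alternative fits, and the Atp12a difference between NZO/HlLtJ and C57BL/6J was called in all 30, with log2 fold changes of -3.77 to -1.47 and adjusted p of 1.45e-10 to 0.000712. Group means of the 6 genes moved by less than 1 SD under relative log expression scaling, plain library totals and unrounded counts.

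Counts of called genes moved by over 1.5 times in the diet comparisons and in some gene lists; the cause was not tested. DESeq2 called 70 genes for diet in C57BL/6J, 596 in CAST/EiJ and 4 in NZO/HlLtJ, and 851, 5 and 194 for the strain-by-diet terms of CAST/EiJ against C57BL/6J, NZO/HlLtJ against C57BL/6J and NZO/HlLtJ against CAST/EiJ. The diet count in CAST/EiJ, 126, was 66 with the identifier series as a term, 80 in limma and 0 with CAST/EiJ alone. The CAST/EiJ against C57BL/6J term, 124, was 78 without the count filter, 49 with the series, 17 with these strains alone and 30 without the 2 oviduct-rich libraries. The NZO/HlLtJ against CAST/EiJ term, 3, was 0 with the series, 0 with these strains alone and 5 without the oviduct-rich libraries. With each library left out, counts ran from 0 to 330 for diet in C57BL/6J, 28 to 220 in CAST/EiJ and 0 to 1 in NZO/HlLtJ, from 8 to 877, 0 to 0 and 0 to 11 for the 3 terms in the same order, and from 3500 to 5605 (NZO/HlLtJ against C57BL/6J), 8517 to 9985 (CAST/EiJ against C57BL/6J) and 9054 to 9993 (CAST/EiJ against NZO/HlLtJ) for strain.

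Signs changed in values that were not called, apart from Fxyd4. Without the oviduct-rich libraries, log2 fold changes went to 0.09 for Tas1r1 (diet in CAST/EiJ), -0.46 for Erich2 (CAST/EiJ against NZO/HlLtJ), -0.18 for Pde6g and -0.19 for 9230104L09Rik (against C57BL/6J). With the series as a term they went to 0.01 for Tas1r1 (NZO/HlLtJ against C57BL/6J) and -0.02 for Atp12a (diet in C57BL/6J). With each library left out, diet values ran from -0.13 to 0.24 for Gad1 and -0.37 to 0.08 for Tas1r1 in CAST/EiJ, and from -0.22 to 0.89 for Atp12a in C57BL/6J. CAST/EiJ against C57BL/6J ran from -0.03 to 2.17 for Fxyd4, -0.58 to 2.01 for Erich2, -0.09 to 0.25 for Pde6g, -0.13 to 0.54 for 9230104L09Rik and -0.06 to 0.01 for Nol9, and Erich2 against NZO/HlLtJ from -0.46 to 1.44. Cst13 lost its call against NZO/HlLtJ with the series (adjusted p of 0.0909), without the oviduct-rich libraries (0.0679) and in 7 fits with 1 library left out (0.0575 to 0.0926). With only the strains compared, 1 cystatin was lower in place of 3, and 1 potassium-pump gene was higher in place of 2 and 0 lower in place of 1. The higher pump genes were also 1 with the series and without any 1 of 4 C57BL/6J libraries, and the lower ones 2 without CAST/EiJ 10% fat replicate 2. Left-out libraries gave 1 TspanC8 gene lower (without C57BL/6J 10% fat replicate 2) and 1 taste gene higher (without NZO/HlLtJ 44% fat replicate 1 or 10% fat replicate 4), in place of 0.

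With 0 to 8 counts per library on the low side of 5 genes, ratios have wide counting intervals, and levels under about 0.0937 CPM cannot be told from 0.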
